A study of Arabidopsis thaliana with 12 samples.

Results

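The 10 genes described here encode the salt overly sensitive (SOS) pathway and the carriers and pump that move sodium across the membranes of Arabidopsis cells. They were chosen by locus and no value entered the rule, but earlier results of these data were known at the time. They are SOS1 (AT2G01980), SOS2 (AT5G35410), SOS3 (AT5G24270), CBL10 (AT4G33000), HKT1 (AT4G10310), NHX1 (AT5G27150), NHX2 (AT3G05030), NHX3 (AT5G55470), NHX4 (AT3G06370) and AVP1 (AT1G15690). All 10 had at least 1 probe among the 25405 loci found on the array, and their 17 probes were taken from the scanner files through the transcript each probe was designed to. The arrays hold RNA of entire seedlings, 10 days old, of wild type Landsberg erecta and of proatcape1, each in 1/2 MS medium alone (control) or in medium with 125 mM NaCl (salt). The mutant is 1 homozygous T-DNA line in the same ecotype, with the insertion in AT4G33730, the gene of the precursor of the peptide AtCAPE1, and no other allele or transgene is given for any group. Each of the 4 groups had 3 arrays, 1 from each of 3 independent experiments with 10 seedlings per treatment. The labels give 0 h for control and 12 h for salt, so that salt and hours cannot be told apart in any salt effect below. Whole seedlings hold root and shoot cells together, and in such a sample fewer cells of a type and less RNA per cell cannot be told apart.

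Sodium that enters a root cell is either pumped back out, kept in the vacuole or carried to the shoot. In the SOS pathway, a calcium signal raised by salt is read by the calcineurin B-like proteins SOS3, which acts mainly in roots, and CBL10, which acts mainly in shoots. Each binds and recruits the protein kinase SOS2, which phosphorylates and activates SOS1, the Na+/H+ antiporter of the plasma membrane. HKT1 is a sodium transporter of the cells around the xylem that takes sodium out of the xylem sap and so protects leaves. NHX1 to NHX4 are Na+(K+)/H+ exchangers of the vacuolar membrane, and AVP1 is the proton-pumping pyrophosphatase that, with the vacuolar H+-ATPase, builds the proton gradient these exchangers use.

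All levels below are log2 signals relative to the 75th percentile of the same array, so that 0 is the level that 75% of probes stay under and each step of 1 is 2-fold. They are compared between groups for 1 probe only, never between genes. A gene was tested when, in at least 1 group, all 3 signals of a probe exceeded 100 and varied with a coefficient under 50%, and it was measured by the brightest such probe. This left 19027 genes, 9 of the 10 among them. NHX3 stayed below the limit and is given as levels. A gene is said to have risen or fallen where the adjusted p of limma (Benjamini-Hochberg over all tested genes) was at most 0.05 and the change was over 1.5-fold, and each log2 change is given with the standard error (SE) of that fit. The 75th percentile of the signal ranged from 1802 to 2394 over the 12 arrays, 71.8% to 78.8% of probes were well above background, and no spot was saturated. The 3 slides held 1 array of each group each, slides 1 and 2 scanned on the first and slide 3 on the second of 2 days, and differences within each slide are given beside the main results. The targeted gene followed its labels. The signal of the PROAtCAPE1 probe was 641, 869 and 590 in wild type control and 56.6, 44.5 and 48.3 in wild type under salt, and lay between 2.97 and 6.36 on the 6 proatcape1 arrays, where it was never well above background.

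Under salt, 2 of the 9 tested genes rose and 2 fell in wild type, and the same 4 genes did so in proatcape1. The vacuolar exchangers NHX2 and NHX1 rose, and the shoot calcium sensor CBL10 and the xylem sodium transporter HKT1 fell. SOS1, SOS2, SOS3, NHX4 and AVP1 stayed under the 1.5-fold limit on the probe used. The 4 genes are 44.4% of those tested, against a background of 39.3% of all genes in wild type (17.5% higher and 21.8% lower) and 45.8% in proatcape1 (19.6% higher and 26.2% lower), so that the share of these genes that passed was near that of all genes. Their median log2 change, 0.03 in wild type and 0.08 in proatcape1, stood beside medians of -0.11 and -0.13 over all genes. With the adjusted p alone and no fold limit, 8 of 9 genes passed in wild type and 6 of 9 in proatcape1, where 78.7% and 82.4% of all genes did. The arrays of the groups did not overlap for 7 genes in wild type and 6 in proatcape1, beside 81.0% and 84.8% of all genes.

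**Figure D1:**
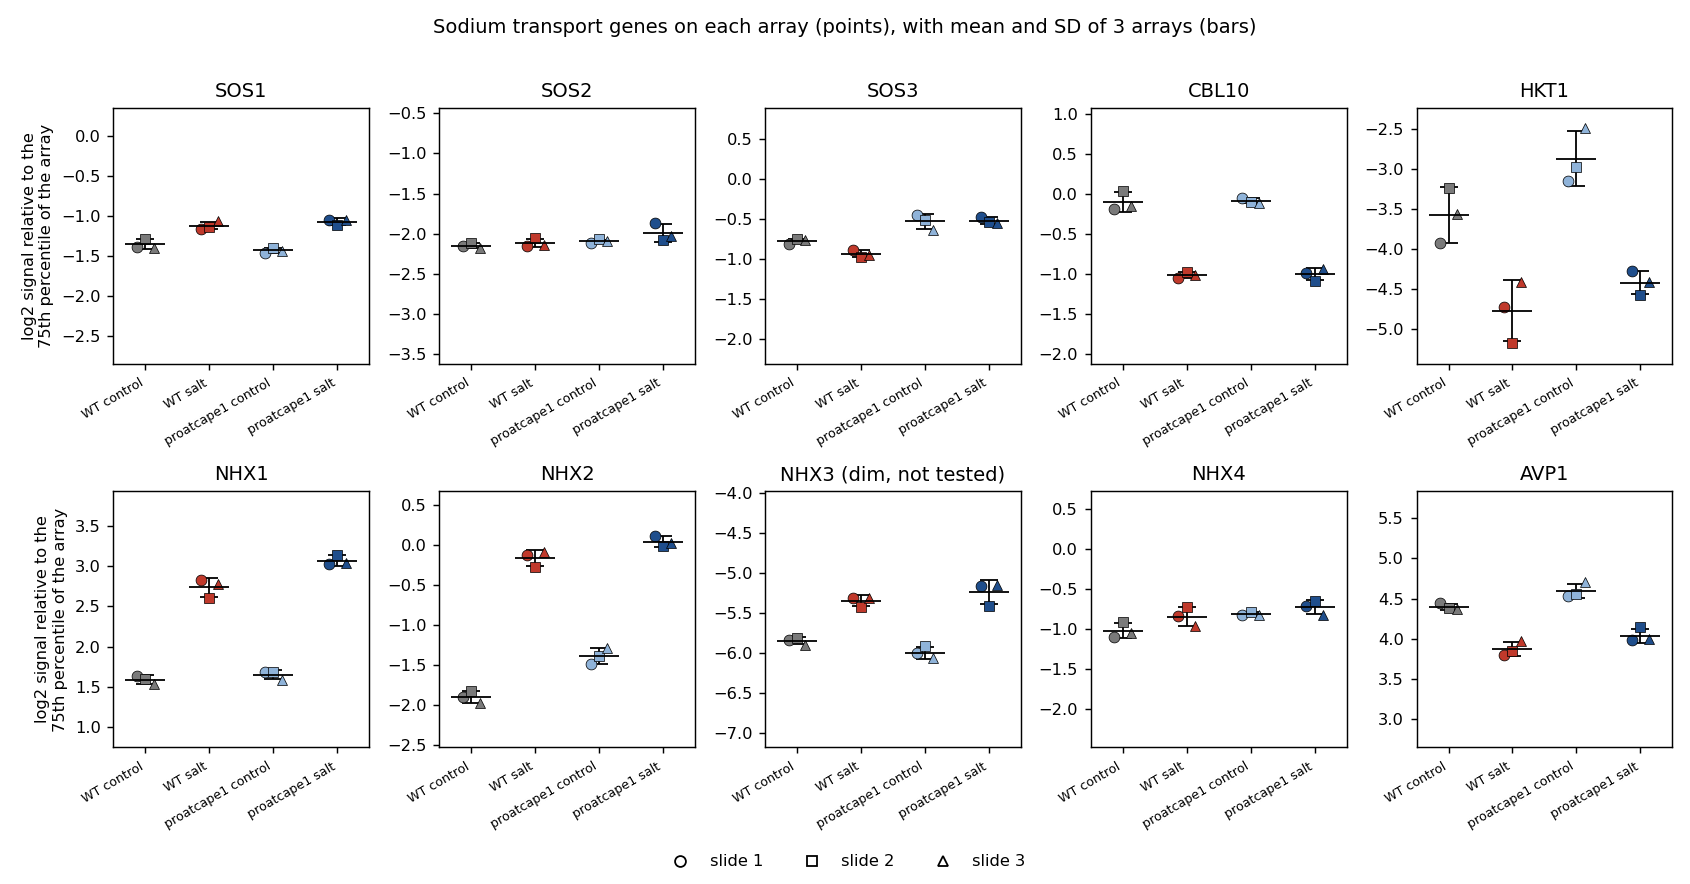
Log2 signal relative to the 75th percentile of the array (y axis, the same span in every panel) for each of the 10 genes in the 4 groups (x axis; WT, wild type). Points are arrays with 1 symbol per slide, and bars give the mean and SD of 3 arrays. NHX1 and NHX2 stand higher and CBL10 and HKT1 lower on every salt array than on any control array of the same genotype.

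**Figure D2:**
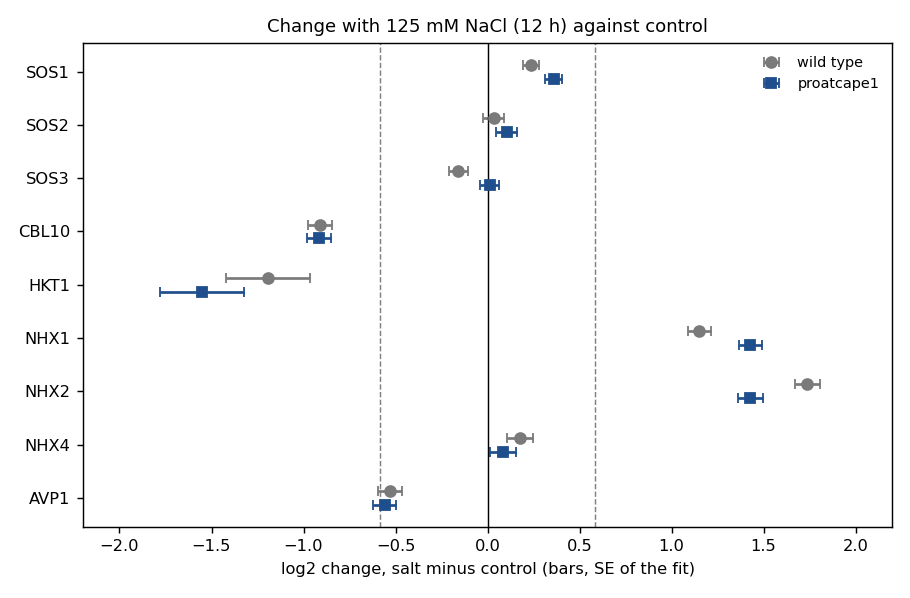
Log2 change with salt (x axis) of the 9 tested genes (y axis) in wild type (grey circles) and proatcape1 (blue squares), with the SE of the fit as bars and dashed lines at 1.5-fold. NHX1 and NHX2 lie beyond the upper line, CBL10 and HKT1 beyond the lower one, and the other 5 genes between them.

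The plasma membrane antiporter SOS1 was slightly higher under salt in both genotypes. Its level was -1.39, -1.28 and -1.39 in wild type control and -1.16, -1.14 and -1.06 under salt. The proatcape1 arrays read -1.46, -1.39 and -1.43 in control and -1.04, -1.11 and -1.05 under salt. No salt array reached down to a control array. The log2 change was 0.24 (SE 0.05, adjusted p = 0.000666 by limma) in wild type and 0.36 (SE 0.05, adjusted p = 2.29e-05) in proatcape1, which is 1.18-fold and 1.28-fold and does not reach the fold limit. The order of the group levels was proatcape1 control, wild type control, wild type salt and proatcape1 salt, with overlap within the control pair and within the salt pair.

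The kinase SOS2, which activates SOS1, had the steadiest level. All 12 arrays lay between -2.18 and -1.87. The log2 change with salt was 0.03 (SE 0.06, adjusted p = 0.601) in wild type and 0.10 (SE 0.06, adjusted p = 0.104) in proatcape1 by limma. Each group overlapped its neighbour in the order wild type control, wild type salt, proatcape1 control, proatcape1 salt. The proatcape1 salt array of slide 1, at -1.87, was the highest and lay apart from the other 2 of its group at -2.08 and -2.02.

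The arrays of the root calcium sensor SOS3 separated the genotypes in both treatments, and the treatments in wild type only. Its level was -0.81, -0.76 and -0.77 in wild type control and -0.89, -0.98 and -0.95 in wild type salt. In the mutant the levels were -0.45, -0.51 and -0.63 in control and -0.47, -0.54 and -0.55 under salt. Every proatcape1 array was above every wild type array, the wild type salt arrays were below the wild type controls, and the proatcape1 groups overlapped each other. The log2 difference between proatcape1 and wild type was 0.25 (SE 0.05, adjusted p = 0.0218 by limma) in control and 0.42 (SE 0.05, adjusted p = 0.000805) under salt. These are 1.19-fold and 1.33-fold, under the fold limit. Within slides the difference under salt was 0.41, 0.44 and 0.40, and that in control 0.36, 0.24 and 0.14. The log2 change with salt was -0.16 (SE 0.05, adjusted p = 0.0162) in wild type and 0.01 (SE 0.05, adjusted p = 0.854) in proatcape1, and the test of the difference between those changes gave 0.17 (SE 0.07, adjusted p = 0.169).

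CBL10, the sensor that hands SOS2 to membranes in the shoot, fell by nearly the same amount in both genotypes. The level was -0.20, 0.04 and -0.15 in wild type control and -1.05, -0.97 and -1.02 in wild type salt. In proatcape1 it was -0.05, -0.10 and -0.11 in control and -0.99, -1.09 and -0.94 under salt. Control and salt arrays were far apart, and the genotypes overlapped within each treatment. The log2 change was -0.91 (SE 0.06, adjusted p = 2.31e-07 by limma) in wild type and -0.92 (SE 0.06, adjusted p = 1.53e-07) in proatcape1, or 1.88-fold and 1.89-fold lower. Within slides it ran from -1.01 to -0.85 in wild type and from -0.99 to -0.82 in proatcape1. A second probe of CBL10 gave -0.93 and -0.91. The difference of the salt effects was -0.01 (SE 0.09, adjusted p = 0.975).

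HKT1, which withdraws sodium from the xylem, had the largest fall of the 9 genes and also the widest spread between arrays. Its level was -3.93, -3.24 and -3.56 in wild type control and -4.72, -5.17 and -4.41 under salt. The proatcape1 arrays read -3.15, -2.97 and -2.49 in control and -4.28, -4.57 and -4.41 under salt. Every salt array lay below every control array, wild type and proatcape1 overlapped under salt, and the 3 proatcape1 control arrays were above the 3 of wild type. The log2 change with salt was -1.19 (SE 0.23, adjusted p = 0.000584 by limma) in wild type and -1.55 (SE 0.23, adjusted p = 7.22e-05) in proatcape1, or 2.29-fold and 2.93-fold lower. Within slides 1, 2 and 3 the wild type change was -0.80, -1.94 and -0.85, and that of proatcape1 was -1.13, -1.60 and -1.92. The gene was dim, with signals from 61.5 to 352. A second, dimmer probe gave -1.44 (SE 0.24) and -1.55 (SE 0.24) and passed in both genotypes. On 1 of its proatcape1 salt arrays it was not well above background. Both probes met the signal limit in the control groups only, and in neither salt group. The fall is thus tied in part to how HKT1 came to be tested, and the second probe shares this limit. In a fit without the filter on dim probes, the first probe gave the same changes and passed (adjusted p = 0.00161 and 0.000255 by limma). The genotype difference in control was 0.71 on the first probe (SE 0.23, adjusted p = 0.107) and 0.28 on the second (SE 0.24, adjusted p = 0.599), where the control arrays overlapped, and neither passed.

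HKT1 is expressed in the root stele, and markers of root cells were lower under salt on the same arrays. Of 10 root markers, all tested, 0 rose and 5 fell in wild type, with a median log2 change of -0.68, and 0 rose and 6 fell in proatcape1, with a median of -0.70. Of all genes, 21.8% fell in wild type and 26.2% in proatcape1, and 17.5% and 19.6% rose. The change of single markers ran from -2.47 to 0.37 in wild type and from -2.51 to 0.26 in proatcape1. The largest falls were those of COBL9, a gene of root hairs, with log2 changes of -2.47 and -2.51, and of CASP1, which builds the Casparian strip, with -1.83 and -1.85. SKOR, the potassium channel that loads the xylem, fell by 1.35 (SE 0.15, adjusted p = 9.08e-06 by limma) in wild type and had a log2 change of -0.52 in proatcape1, under the fold limit. It was also lower in proatcape1 than in wild type in control, with a difference of -0.76 (SE 0.15, adjusted p = 0.0163), where HKT1 had a positive difference. Of 8 leaf markers, all tested, 2 rose and 1 fell in each genotype, with medians of -0.08 and 0.05. This share of 37.5% was near that of all genes, 39.3% in wild type and 45.8% in proatcape1. The chloroplast regulators GLK1 and GLK2 rose, by 1.14 and 0.63 in wild type and by 0.71 and 0.82 in proatcape1. PORB, an enzyme of chlorophyll synthesis, fell too, with log2 changes of -2.82 in wild type and -3.62 in proatcape1, and under salt it was lower in proatcape1, with a difference of -0.70 (SE 0.08, adjusted p = 0.000423). The part that the balance of root and leaf RNA has in the HKT1 and CBL10 values was not tested.

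NHX1, the best known vacuolar exchanger, rose in both genotypes. The level was 1.63, 1.60 and 1.53 in wild type control and 2.83, 2.60 and 2.78 under salt. In the mutant the levels were 1.68, 1.68 and 1.58 in control and 3.04, 3.15 and 3.04 under salt. The control groups overlapped, both salt groups stood clear of them, and every proatcape1 salt array was above every wild type salt array. The log2 change was 1.15 (SE 0.06, adjusted p = 4.14e-08 by limma) in wild type and 1.43 (SE 0.06, adjusted p = 6.26e-09) in proatcape1, or 2.22-fold and 2.69-fold. A second probe of NHX1 gave 1.19 and 1.46. Within slides the change ran from 1.00 to 1.26 in wild type and from 1.36 to 1.47 in proatcape1. Under salt the genotypes differed by 0.34 (SE 0.06, adjusted p = 0.00403), which is 1.26-fold and under the fold limit, and by 0.24 (SE 0.08, adjusted p = 0.0423) on the second probe. In control the difference was 0.06 (SE 0.06, adjusted p = 0.674), and -0.03 (SE 0.08, adjusted p = 0.902) on the second probe. The difference of the salt effects, 0.28 (SE 0.09, adjusted p = 0.0835), did not pass.

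NHX2, the close relative of NHX1, had the largest rise of the 9 genes in wild type. Its level was -1.90, -1.82 and -1.97 in wild type control and -0.12, -0.27 and -0.09 under salt. In proatcape1 it was -1.48, -1.38 and -1.29 in control and 0.12, -0.01 and 0.03 under salt. Its 4 groups stood apart without overlap, in the order wild type control, proatcape1 control, wild type salt and proatcape1 salt. Of the other genes tested, only AVP1 also had 4 groups without overlap on its brightest probe. On the other AVP1 probes the salt groups overlapped. The log2 change with salt was 1.74 (SE 0.07, adjusted p = 3.88e-09 by limma) in wild type, larger than that of 94.1% of tested genes, and 1.43 (SE 0.07, adjusted p = 1.08e-08) in proatcape1, or 3.33-fold and 2.69-fold. Within slides it ran from 1.55 to 1.89 in wild type and from 1.31 to 1.60 in proatcape1. The level in proatcape1 was already above wild type in control, by 0.51 (SE 0.07, adjusted p = 0.00235), which is 1.43-fold and just under the fold limit. The difference within slides was 0.42, 0.44 and 0.69. Under salt it was 0.20 (SE 0.07, adjusted p = 0.0429), with 0.24, 0.26 and 0.11 within slides. Subtracting the wild type change from that of proatcape1 gave -0.31 (SE 0.10, adjusted p = 0.0757) and did not pass. It is made from the same arrays as the control difference, so that these values are not separate pieces of evidence.

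NHX3 and NHX4, the less studied vacuolar exchangers, had smaller changes. The only NHX3 probe was well above background on all 12 arrays but dim, with signals from 29.5 to 60.2. Its level was -5.84, -5.82 and -5.90 in wild type control and -5.31, -5.42 and -5.31 under salt. The proatcape1 arrays read -6.00, -5.92 and -6.07 in control and -5.16, -5.42 and -5.16 under salt. Salt arrays were above control arrays in each genotype. In a fit without the filter on dim probes, the log2 change was 0.50 (SE 0.08, adjusted p = 0.00023 by limma) in wild type and 0.75 (SE 0.08, adjusted p = 1.12e-05) in proatcape1, and only the latter passed the fold limit. NHX4 was at -1.09, -0.91 and -1.05 in wild type control and -0.84, -0.72 and -0.96 under salt. In the mutant the levels were at -0.82, -0.78 and -0.82 in control and -0.71, -0.65 and -0.82 under salt. Salt and control arrays overlapped in each genotype, and the log2 change was 0.18 (SE 0.07, adjusted p = 0.0371) and 0.08 (SE 0.07, adjusted p = 0.297). A second NHX4 probe did not pass the filter on dim probes, with signals from 69.2 to 98.9.

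AVP1, the vacuolar proton-pumping pyrophosphatase, was lower under salt on each of its 4 probes, by an amount close to the fold limit. On the brightest probe the level was 4.44, 4.38 and 4.38 in wild type control and 3.79, 3.84 and 3.97 under salt. In proatcape1 it was 4.54, 4.55 and 4.70 in control and 3.98, 4.14 and 3.99 under salt. Every salt array was below every control array, and within each treatment proatcape1 was above wild type without overlap. The log2 change was -0.53 (SE 0.06, adjusted p = 1.91e-05 by limma) in wild type and -0.56 (SE 0.06, adjusted p = 1.03e-05) in proatcape1, or 1.45-fold and 1.47-fold lower, which did not pass. The call depended on the probe and on single arrays. In a fit with every kept probe as its own feature, 1 of the 4 AVP1 probes fell in wild type, where 20.7% of all probes did, and 3 of 4 fell in proatcape1, where 25.3% did. The other 3 probes gave -0.54, -0.59 and -0.48 in wild type and -0.75, -0.79 and -0.68 in proatcape1. The mean of the 4 probes passed in proatcape1 with -0.70. The brightest probe passed in proatcape1 at -0.59 without the first control array of that genotype and at -0.61 without its second salt array, and in wild type at -0.59 with the arrays of the first scan alone. Under salt the brightest probe differed between genotypes by 0.17 (SE 0.06, adjusted p = 0.065), whereas the other 3 probes gave -0.03, -0.01 and 0.08.

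**Figure D3:**
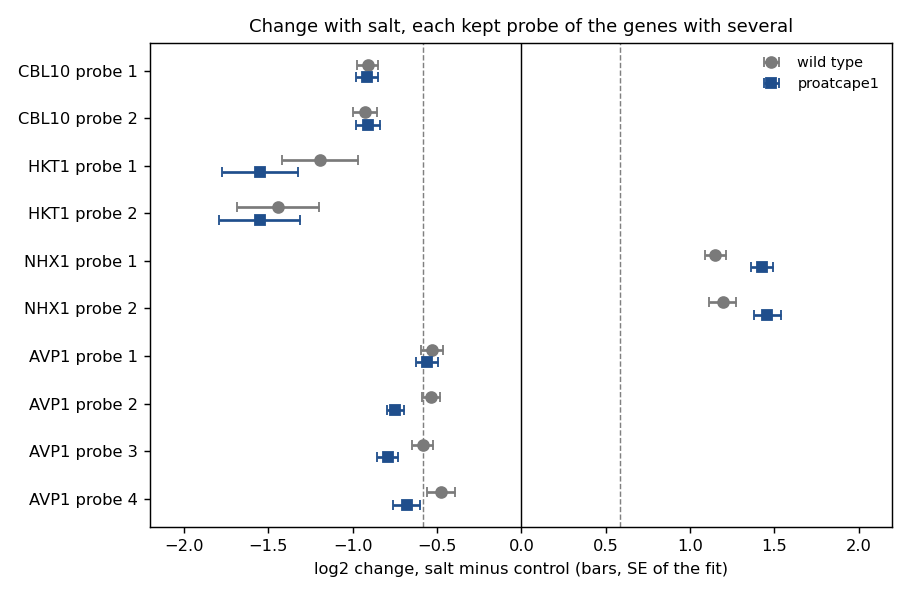
Log2 change with salt (x axis, bars give the SE of the fit, dashed lines mark 1.5-fold) on each kept probe (y axis, numbered from the brightest) of the 4 genes with more than 1, in wild type (grey circles) and proatcape1 (blue squares). The probes of CBL10, HKT1 and NHX1 lie beyond the fold limit in both genotypes, while the AVP1 probes straddle it.

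The comparison of proatcape1 with wild type in the same treatment asked whether the loss of the peptide precursor altered these genes. In control, 0 of the 9 genes passed, where 2.12% of all genes did, and under salt 0 of 9, where 4.66% did. The test of the difference of the salt effects was passed by 0 of 9, where 2.56% of all genes did. At an unadjusted p under 0.05 the counts by limma were 5, 5 and 3 of 9, where 20.0%, 45.2% and 27.3% of all genes did so, and Student's t-test with the fold limit also gave 0 in control and 0 under salt. With the adjusted p alone, SOS3 and NHX2 passed in control, where 5.76% of all genes did, and SOS3, NHX1 and NHX2 under salt, where 34.0% did. With each same-numbered pair of arrays of 1 treatment as a block, NHX4 passed too in control (adjusted p = 0.0359). In that fit 7.89% of all genes passed in control at the adjusted p alone. The same 3 genes passed under salt, where 38.7% of all genes did. For each of these named genes, proatcape1 was the higher genotype. The arrays of the genotypes did not overlap for 6 of 9 genes in control and 4 of 9 under salt, beside 25.9% and 48.7% of all genes.

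The sign of the genotype differences was mostly positive. In control, 8 of 9 genes were higher in proatcape1, with a median log2 difference of 0.20, and under salt 9 of 9, with a median of 0.17. Over all genes 51.5% and 47.5% were higher, with medians of 0.00 and -0.01. The exception in control was SOS1 at -0.07 (SE 0.05), and CBL10, at 0.01 in both treatments, changed sign with the mean of its 2 probes in both and in control also with the normexp background correction, where 7 of 9 genes were higher. NHX1, counted as higher in control, was lower there on its second probe. The second CBL10 probe gave -0.08 in control and -0.06 under salt. AVP1, counted as higher under salt, gave -0.03, -0.01 and 0.08 there on its other probes. Under quantile and median scaling the counts remained 8 and 9. As the genes of a seedling are not independent and share the same arrays, no test was made of these counts. A positive median was not particular to these genes. The leaf markers had median differences of 0.09 in control and 0.17 under salt, and the root markers 0.07 and -0.09. Under salt 6 of the 8 leaf markers and 3 of the 10 root markers passed at the adjusted p alone, in either direction. Of all genes, 34.0% did. The leaf marker differences ran from -0.70, that of PORB, to 0.57. In the partner, pump and exchanger lists given below, the medians ran from 0.02 to 0.12 in control and from -0.03 to 0.06 under salt.

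**Figure D4:**
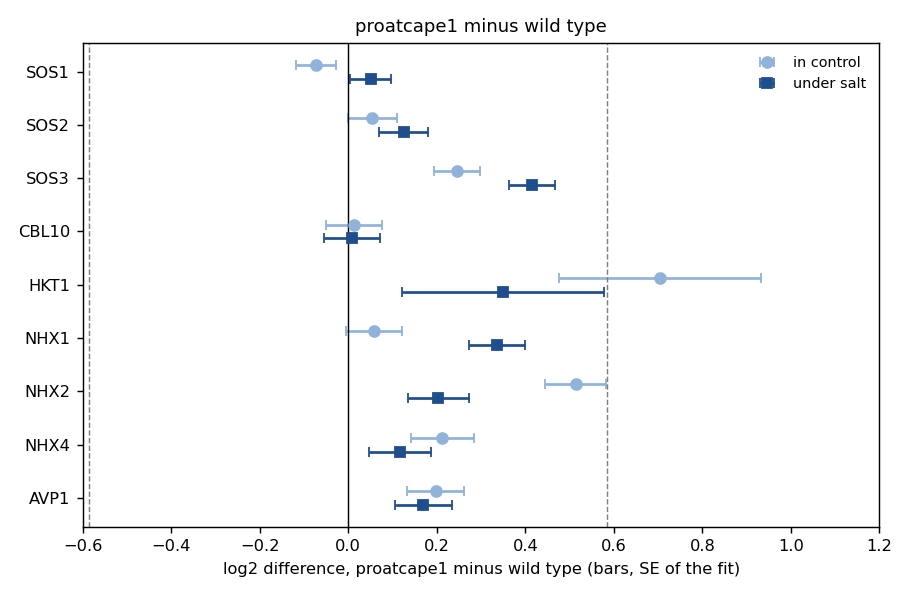
Log2 difference of proatcape1 minus wild type (x axis, bars give the SE of the fit, dashed lines mark 1.5-fold) for the 9 tested genes (y axis), in control (light circles) and under salt (dark squares). Most points lie to the right of 0, HKT1 in control has the largest difference and, with HKT1 under salt, the widest bars, and only HKT1 in control lies past the fold line, without passing the test.

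The genes that act on or beside these transporters were taken from 4 lists. Among 14 partners and regulators of the SOS proteins, 4 rose and 1 fell in each genotype, with median changes of -0.04 and 0.05. This share of 35.7% stood beside 39.3% of all genes in wild type and 45.8% in proatcape1. The largest rises were those of ABI2 and ABI1, phosphatases of abscisic acid signalling of which ABI2 binds SOS2, by 3.08 (SE 0.12, adjusted p = 3.79e-09 by limma) and 2.56 (SE 0.10, adjusted p = 3.25e-09) in wild type and by 3.41 and 2.83 in proatcape1. GI, the clock protein that holds SOS2 inactive without salt, fell, with log2 changes of -1.90 (SE 0.07, adjusted p = 1.6e-09) in wild type and -1.97 in proatcape1. The other 9 did not pass in either genotype.

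The plasma membrane H+-ATPases provide the proton gradient that SOS1 uses. Of 11, 8 were tested, and 3 rose and 1 fell in wild type, with a median of 0.29, whereas 3 rose and 2 fell in proatcape1, with a median of 0.13. The shares that passed, 50% and 62.5%, stood beside 39.3% and 45.8% of all genes. AHA11 and AHA3 had the largest rises, with 1.25 (SE 0.08) and 1.02 (SE 0.10) in wild type and 0.97 and 1.38 in proatcape1. AHA7 fell, with -1.02 (SE 0.09) and -0.96, and AHA2, the main pump of roots, fell by 0.70 (SE 0.07) in proatcape1 and had a log2 change of -0.55 in wild type, under the limit.

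The vacuolar H+-ATPase, which shares the membrane with AVP1 and the NHX exchangers, was the flattest group. Of 27 subunit genes, 26 were tested, and by limma 0 rose and 0 fell in either genotype, where 39.3% and 45.8% of all genes passed. Their log2 changes lay between -0.51 and 0.30 in wild type and between -0.48 and 0.38 in proatcape1, with a median of -0.04 in both. At an unadjusted p under 0.05 there were 12 and 17 of 26, where 79.9% and 83.4% of all genes did so, and at the adjusted p alone 12 and 14, beside the 78.7% and 82.4% given above. The count by Student's t-test with the fold limit was 0 and 0.

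Of 11 other proton-coupled exchangers and pyrophosphatases, 9 were tested, and 3 rose and 1 fell in each genotype, with medians of 0.00 and -0.07. This share of 44.4% was near that of all genes, 39.3% in wild type and 45.8% in proatcape1. CAX3, a vacuolar Ca2+/H+ exchanger, rose by 3.08 (SE 0.18, adjusted p = 5.78e-08 by limma) in wild type and by 3.28 in proatcape1. CHX17, a cation/H+ exchanger known from potassium balance, rose by 1.34 (SE 0.19) and 1.29. CAX1, the relative of CAX3, fell, with log2 changes of -0.77 (SE 0.14) and -0.91. In none of the 4 lists did a gene pass in a genotype comparison or in the difference of the salt effects by limma. Under salt, ABI2, AHA3 and CAX1 passed between genotypes when the first wild type salt array was left out. These are 1 gene each of the partners, the plasma membrane pumps and the other exchangers, and no vacuolar subunit passed. CAX1 also passed without the third proatcape1 salt array. The share of all genes that passed in these fits is not given, and with all arrays it was 4.66%. At an unadjusted p under 0.05 the 4 lists gave 1, 3, 2 and 1 genes in control, 4, 3, 10 and 2 under salt and 1, 4, 0 and 0 for the difference of the salt effects, in the order in which the lists are given here. These are of 14, 8, 26 and 9 genes tested, beside the same 20.0%, 45.2% and 27.3% of all genes.

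**Figure D5:**
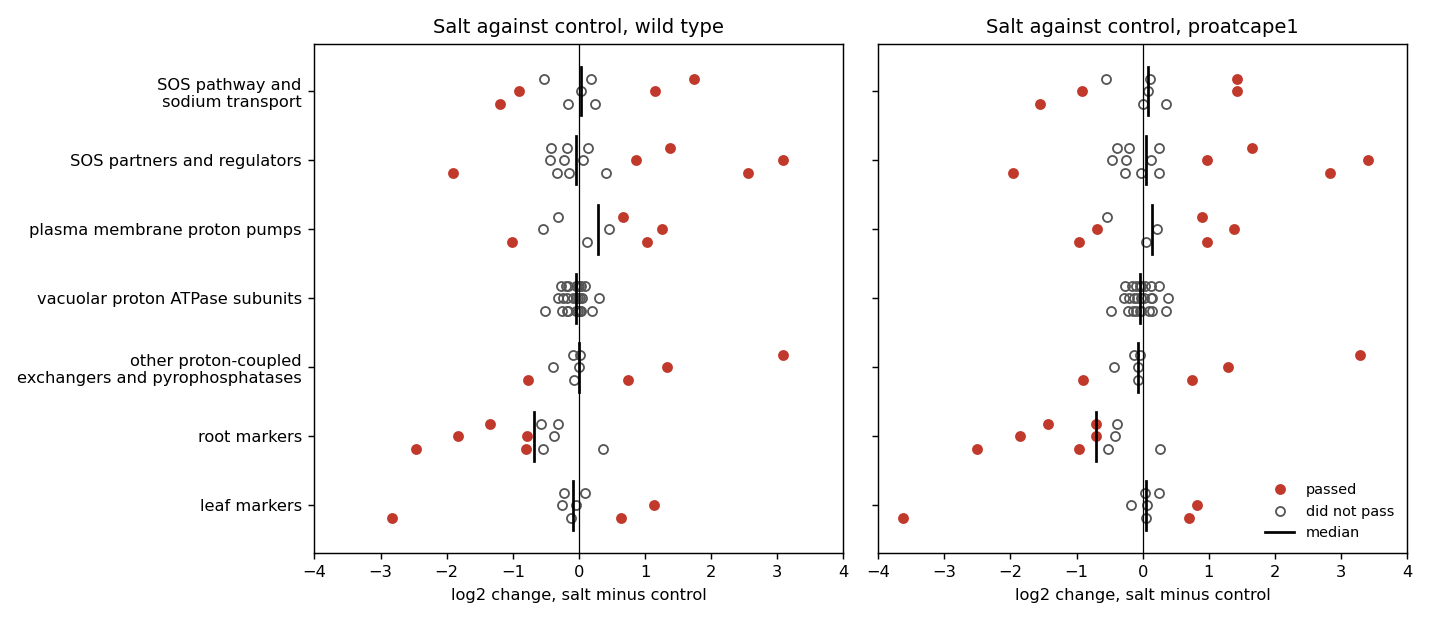
Log2 change with salt (x axis) of each tested gene, by list (y axis), in wild type (left) and proatcape1 (right). Filled points passed, open points did not, and black lines are medians. The vacuolar H+-ATPase subunits hold no filled point, and the root markers lie mostly to the left of 0.

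The genes whose levels over the 12 arrays most resembled those of the 4 that passed are given as a description. Pearson's r over 12 arrays was highest for NHX1 with AT1G63010, AT5G09620 and AT2G18240, each at 0.998. For NHX2 it was highest with AT4G03140, MAN1 and SULTR3;1, each at 0.996. For CBL10 the closest were CASP2 (0.998), AT5G16720 (0.997) and PDIL1-4 (0.997). For HKT1 they were AT2G40316 (0.988), AT3G06590 (0.976) and AT1G50950 (0.972). The arrays form separate groups, and r over all of them includes the difference between control and salt. After the group means were removed, r ranged from 0.62 to 0.95 over these 12 pairs, with AT2G40316 and HKT1 at the top.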

How the data were processed

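The authors hybridized Cy3-labelled RNA of each sample to 1 Agilent Arabidopsis array and read it with Feature Extraction. The deposited scanner files give the processed signal, a background-corrected intensity on a linear scale that is not scaled between arrays. The authors' deposited normalized values are log2 values. They equalled the processed signal after log2, the subtraction of each array's 75th percentile and that of a value per probe from the wild type controls, to within differences of SD 0.00565 or less, and served as an alternative only. Here spots with an outlier flag were dropped (76 probes lost), 34306 of 43603 probes were given a locus through RefSeq names (assembly TAIR10.1), and 28833 passed the study's signal and variation limits, applied to the processed signal. The files name another genome build, so no coordinates are given. One limma fit (limma 3.58.1 in R 4.3.3) estimated 4 group means from 12 arrays without a block. It was tested on simulated data. Tables and plots used Python 3.11.15 with pandas 2.3.3, numpy 2.4.6 and matplotlib 3.10.9.

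The genes and lists were chosen with earlier results of these data known. All 10 genes are named, and, in each other list, the 2 largest rises and falls that passed in either genotype under salt and any gene that passed in a genotype comparison or the difference of salt effects. Same-numbered arrays of 2 groups came from 1 experiment number and 1 slide. Their deviations from the group means correlated at 0.31, 0.24 and 0.37 between the genotypes under salt and at 0.09, 0.21 and 0.30 in control, against -0.22 to -0.08 and -0.23 to 0.05 for other numbers, and from -0.20 to 0.12 between treatments. Deviations from a group mean cancel out within each group, so that the values for other numbers depend on those for same numbers. By the limit of 0.1 in every pair the numbers paired the genotypes under salt only, and a fit with these pairs as blocks within each treatment was added. Alternatives covered the background correction (normexp, offset 50), scaling, filters, probe choice, arrays in the fit, intensity trend, array weights, replicate or slide block, the authors' values, the fold limit, Student's t-test and the omission of each array. The fit of single probes, that of the first scan and that of pairs within a treatment were added after seeing the data. Precision is limited by the number of arrays.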

Additional observations from a re-analysis of the deposited data

Results flagged for a closer look

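The salt effect of 2 genes from the marker lists differed between the genotypes by the limma test of the difference itself. SKOR, the potassium channel of the root stele, had a salt effect that was higher in proatcape1 by 0.83 on the log2 scale (SE 0.21, adjusted p = 0.0423), with a fall of 1.35 in wild type and a change of -0.52 in proatcape1. PORB, the enzyme of chlorophyll synthesis, had a salt effect that differed by -0.80 (SE 0.11, adjusted p = 0.00815), with log2 changes of -2.82 in wild type and -3.62 in proatcape1. Each difference uses the same arrays as a genotype difference given above, -0.76 for SKOR in control and -0.70 for PORB under salt. The paired values are not separate pieces of evidence.

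For 2 of the sodium transport genes the genotype difference had opposite signs in control and under salt on every slide. SOS1 was lower in proatcape1 on all 3 slides in control (-0.07, -0.11 and -0.04) and higher on all 3 under salt (0.11, 0.02 and 0.02), and the difference between these effects was 0.12 (adjusted p = 0.247 by limma). NHX3 was likewise lower in control (-0.16, -0.10 and -0.17) and higher under salt (0.15, 0.01 and 0.15), a difference of 0.25 (adjusted p = 0.231 in the fit without the filter on dim probes). Neither difference passed.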

How the results depend on the processing

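The 8 changes that passed, those of CBL10, HKT1, NHX1 and NHX2 with salt in each genotype, kept their direction and passed in all 216 values under other settings. These settings share arrays and are not independent, and some, such as that without a fold limit, could not take a call away. The widest range was that of HKT1 in wild type, from -1.37 to -0.75. The replicate block, which here equals a slide block, left the counts of the 9 tested genes at 4, 4, 0, 0 and 0 in the 5 comparisons and changed no call in the lists. It assumes 1 slide effect for all groups, whereas same-numbered arrays deviated together between genotypes and not between treatments. The replicate block within each treatment, added after seeing the data, also left the 3 genotype counts at 0, and over all genes moved them from 404, 887 and 487 to 471, 943 and 691. At the adjusted p alone, NHX4 passed in control under both blocks, and NHX2 under salt was lost under the slide block and kept within treatments. Of all genes, 5.19% passed so in control and 33.8% under salt with the slide block. Within treatments the shares were 7.89% and 38.7%.

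Without the fold limit, 8 of the 9 tested genes passed in wild type under salt, 2 between genotypes in control and 3 between genotypes under salt. Of all genes, 78.7%, 5.76% and 34.0% did so. In wild type under salt, 12 of 14 SOS partners, 8 of 8 plasma membrane pumps and 12 of 26 vacuolar ATPase subunits then passed. In proatcape1, where 82.4% of all genes did, 12 partners and 14 subunits passed. Between genotypes, 1 plasma membrane pump passed in control, and 2 partners, 2 pumps, 6 subunits and 1 other exchanger under salt. With each array left out in turn, the genotype comparison under salt gave 0 to 1 partners, 0 to 1 pumps and 0 to 1 other exchangers. The shares of all genes in those fits are not given.

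Some values near 0, none of which passed, changed sign. The salt effect of SOS3 in proatcape1 was -0.036 with array weights and -0.026 with the first scan alone, and -0.041 to 0.053 with each array left out. The genotype difference of CBL10 in control was -0.0045 with normexp and -0.032 with the mean of the probes (-0.034 to 0.084 with each array left out). Under salt it was -0.0256 with the mean of the probes and -0.0262 with the first scan alone (-0.025 to 0.050). For the difference of the salt effects, CBL10 gave 0.0433 with normexp, 0.0072 with quantile scaling, 0.015 with median scaling and 0.0061 with the mean of the probes (-0.076 to 0.0423). HKT1 gave 0.0012 and AVP1 0.11 with the first scan alone, and AVP1 -0.078 to 0.024 with each array left out. The causes were not tested. HKT1 and NHX3 are dim, which limits their values.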
